A study of Mus musculus with 16 samples.

Results

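The Kv1 family of voltage-gated potassium channels was followed in the hippocampus of 12-month-old male mice through 9 genes: the pore-forming alpha subunits Kcna1, Kcna2, Kcna3, Kcna4, Kcna5 and Kcna6, and the cytoplasmic beta subunits Kcnab1, Kcnab2 and Kcnab3. The members were chosen by symbol, as all probe sets whose single gene symbol is one of these 9. The family itself was selected on a measured value, a low Kcna6 probe set in mice given AβPP-Antisense, so every difference that involves the AβPP-Antisense group is given as a description with no test. The rule found 21 probe sets of 45037, for 9 of 18193 genes, and 19 of the 21 passed a filter on low values (over 4 log2 on at least 4 arrays). For 5 of the genes (Kcna2, Kcna6, Kcnab1, Kcnab2 and Kcnab3) 1 probe set had a mean difference between AβPP-Antisense and Random-Antisense of -1.59 to -2.21 log2, while the brightest probe set of the same gene differed by -0.83 to 0.14. No member was called between SAMP8 and Control, or between Random-Antisense and untreated SAMP8.

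Each of 16 Affymetrix arrays carried hippocampal RNA of 1 mouse, and the mice form 4 groups of 4. Control mice are an untreated 50% backcross of SAMP8 with CD-1, and the labels describe them as free of memory deficits. SAMP8, the senescence-accelerated line with memory deficits at 12 months, was left untreated or received an intravenous oligonucleotide, either of random sequence (Random-Antisense) or directed at the amyloid beta precursor protein (AβPP-Antisense). The labels give no oligonucleotide dose or timing, and the Control group differs from SAMP8 by its crossed genetic background as a whole, not at a single locus. Random-Antisense 1 is labelled as untreated in its treatment field, while its title, source name and description give the random oligonucleotide, and it was kept with that group.

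Kv1 channels are tetramers of alpha subunits that open at small depolarisations, and they delay and limit action potential firing. In central neurons they are concentrated in axons, at the initial segment, beside the nodes of Ranvier and at terminals, where a scaffold of Caspr2, contactins and PSD-95 relatives holds them. Beta subunits bind the cytoplasmic face of the tetramer, aid its delivery to the axon and, in the case of Kvβ1, can confer rapid inactivation.

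Values are log2 GCRMA values, and a difference of 1 is a 2-fold change. Probe sets of 1 gene sample different stretches or forms of its transcripts, so levels were compared between arrays within a probe set and never between probe sets. Some arrays stood apart over all probe sets. The median correlation with the 15 others was 0.922 for Control 4 and 0.905 for AβPP-Antisense 4. The difference between 3′ and 5′ control probe sets of beta-actin, which widens when RNA is degraded or incompletely copied, was 3.89 on AβPP-Antisense 4, 1.60 on AβPP-Antisense 1, 1.60 on AβPP-Antisense 2 and 1.21 on AβPP-Antisense 3, against 0.84 to 1.36 on the other 12 arrays. The mean of 10 hippocampal excitatory neuron markers was 8.04 to 9.93 over the arrays, with 10 of 10 genes tested. In bulk tissue, fewer cells of a type and less RNA per cell cannot be told apart.

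Kcna6 encodes Kv1.6, an alpha subunit found in neurons of the hippocampus and elsewhere. Its probe set 1421568_at, the value that led to the choice of the family, read 2.01, 2.40, 3.02 and 2.03 on the 4 AβPP-Antisense arrays. On the Random-Antisense arrays it read 4.90, 4.50, 4.25 and 4.36, on the untreated SAMP8 arrays 4.73, 4.38, 4.32 and 4.95, and on the Control arrays 5.20, 4.92, 4.50 and 3.93. All 4 AβPP-Antisense arrays lay below the 12 others, and none of them reached the 4 log2 of the filter. The mean difference from Random-Antisense was -2.14 (SE 0.28), a 4.41-fold lower value whose size is uncertain because the low group sits near the bottom of the scale. The difference from untreated SAMP8 was -2.23.

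The other Kcna6 probe sets gave different readings on the same arrays. The brightest, 1456954_at, read 8.86, 9.07, 8.18 and 9.89 in AβPP-Antisense, against 8.84, 8.90, 8.78 and 8.92 in Random-Antisense. AβPP-Antisense 3 was below and AβPP-Antisense 4 was 1.03 above the mean of a Random-Antisense group whose SD was 0.065 (n = 4), and the means differed by 0.14 (SE 0.24). Probe set 1441049_at read 6.01, 7.45, 5.004 and 7.75 in AβPP-Antisense and 7.03, 7.38, 7.17 and 7.98 in Random-Antisense. AβPP-Antisense 1 and 3 were low there while AβPP-Antisense 2 and 4 fell inside the Random-Antisense range. Thus 1 of 3 Kcna6 probe sets was low on all 4 treated arrays.

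**Figure D1:**
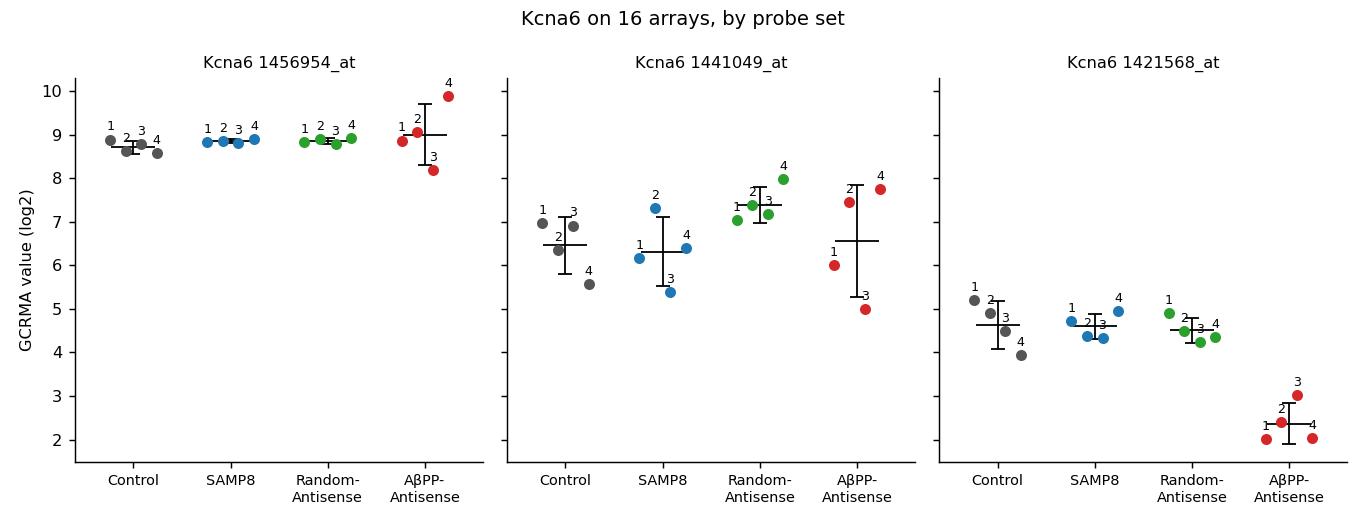
Deposited log2 values (vertical axis) of the 3 Kcna6 probe sets on all 16 arrays, in the 4 groups; points carry the replicate number, the horizontal line is the group mean and the bar its SD. The 4 AβPP-Antisense arrays of 1421568_at lie between 2.01 and 3.02, below all others, while those of 1456954_at spread from 8.18 to 9.89 around the other groups.

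Kcna1 encodes Kv1.1, the axonal subunit mutated in episodic ataxia. Its brightest probe set, 1455785_at, read 12.29, 11.96, 11.97 and 12.10 in AβPP-Antisense and 12.26, 12.26, 12.20 and 12.18 in Random-Antisense, a difference of -0.14 (SE 0.13). AβPP-Antisense 1 was the highest of these 8 arrays, so the groups overlap. Probe set 1417416_at read 10.68, 11.005, 10.76 and 9.996 in AβPP-Antisense against 11.14, 11.35, 11.24 and 11.12 in Random-Antisense, a difference of -0.60 (SE 0.20). There the groups did not overlap, and AβPP-Antisense 4 was lowest. Probe set 1437230_at lay between these with a difference of -0.43 (SE 0.18). The last of the 4, 1442413_at, stayed between 1.73 and 1.95 on all 16 arrays and was not tested.

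Kcna2 encodes Kv1.2, the usual partner of Kv1.1 in axonal tetramers. Its 2 brighter probe sets overlapped between the treated groups. On 1440759_at AβPP-Antisense read 11.31, 11.86, 10.85 and 11.48 and Random-Antisense 11.73, 11.60, 11.56 and 11.69, a difference of -0.27 (SE 0.19). AβPP-Antisense 2 was the highest and AβPP-Antisense 3 the lowest of these 8 arrays. The difference was -0.29 on 1439872_at, with the same array highest and the same array lowest. On 1422197_at the values were 4.00, 4.32, 5.34 and 3.97 in AβPP-Antisense and 6.29, 5.89, 5.86 and 5.93 in Random-Antisense, a difference of -1.59 (SE 0.47) without overlap. Control 4 read 3.99 on this probe set, as low as the AβPP-Antisense arrays, while the other Control arrays read 6.07 to 6.87. The last Kcna2 probe set, 1457911_at, stayed between 1.92 and 2.02 and was not tested.

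Kcna3 encodes Kv1.3, best known in T lymphocytes and microglia and also present in neurons. Its only probe set, 1423018_at, was near the filter, at 3.78, 4.15, 4.19 and 3.89 in AβPP-Antisense and 4.57, 4.47, 4.69 and 4.55 in Random-Antisense. The groups did not overlap, with a difference of -0.57 (SE 0.13). Control 4, whose 4 tested leukocyte markers averaged 13.10 against 8.11 to 9.14 on the other 15 arrays, read 4.22 for Kcna3, the lowest of the Control group. Cd3e, Cd3g and Cd3d, which define T cells, did not pass the filter.

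Kcna4 encodes Kv1.4, the alpha subunit that inactivates by itself and is found in mossy fibre and other hippocampal axons. Its 2 probe sets differed in sign in AβPP-Antisense. The brighter, 1438613_at, read 9.01, 8.73, 9.01 and 9.68 against 8.83, 8.76, 8.87 and 8.77 in Random-Antisense, a difference of 0.30 (SE 0.16). On 3 of the 4 arrays it lay above every Random-Antisense array. The dimmer, 1422255_at, read 5.98, 5.26, 6.42 and 4.71 against 6.24, 6.44, 6.25 and 6.13, a difference of -0.67 (SE 0.29). AβPP-Antisense 3 lay inside the Random-Antisense range, and the other 3 arrays lay below it. Without AβPP-Antisense 4 the differences were 0.11 and -0.38.

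Kcna5 encodes Kv1.5, a subunit better known from heart and vessels. Its probe set 1417680_at was low and scattered, at 4.18, 5.27, 4.48 and 4.81 in AβPP-Antisense, 4.68, 4.78, 3.08 and 4.14 in Random-Antisense, 5.32, 4.76, 5.72 and 4.53 in SAMP8 and 4.32, 5.12, 4.09 and 3.14 in Control. All 4 groups overlapped. AβPP-Antisense minus Random-Antisense was 0.52 (SE 0.43), the largest positive value among the members, and 0.15 without Random-Antisense 3 or 0.32 without AβPP-Antisense 2.

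Each beta subunit likewise had 1 probe set lower in AβPP-Antisense than the other. Kcnab1 encodes Kvβ1, the inactivating beta subunit, abundant in the hippocampus. On 1448468_a_at, the brighter probe set, AβPP-Antisense read 10.61, 9.35, 10.42 and 9.72 and Random-Antisense 10.32, 10.48, 10.38 and 10.25. Replicates 2 and 4 were low, and replicate 1 was above the Random-Antisense group. On 1454043_a_at AβPP-Antisense read 7.96, 6.10, 8.74 and 2.76 and Random-Antisense 8.34, 8.62, 8.49 and 8.24. The difference of -2.03 (SE 0.89) rested in large part on AβPP-Antisense 4, and without that array it was -0.82.

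Kcnab2 encodes Kvβ2, the most abundant beta subunit of brain. Its brighter probe set, 1416956_at, read 11.88, 11.55, 12.00 and 11.91 in AβPP-Antisense and 12.14, 11.94, 11.93 and 12.03 in Random-Antisense, which overlap. On 1425885_a_at the AβPP-Antisense arrays read 8.10, 7.51, 9.78 and 5.75 against 9.84, 9.74, 9.67 and 9.53. AβPP-Antisense 3 was level with Random-Antisense and arrays 1, 2 and 4 differed from its mean by -1.60, -2.19 and -3.94. The difference was -1.91 (SE 0.57), and -1.23 without AβPP-Antisense 4.

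Kcnab3 encodes Kvβ3, the least characterised beta subunit. Its brighter probe set, 1423950_at, read 6.63, 6.78, 5.62 and 7.10 in AβPP-Antisense and 7.51, 7.25, 7.27 and 7.43 in Random-Antisense, a difference of -0.83 (SE 0.29) without overlap. The other, 1421790_a_at, read 5.86, 5.48, 4.86 and 3.21 against 6.97, 7.11, 6.80 and 7.37, a difference of -2.21 (SE 0.43), the largest of the family. Without AβPP-Antisense 4 it was -1.66. Kcnab3 was thus the 1 beta subunit with both probe sets below the whole Random-Antisense group.

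**Figure D2:**
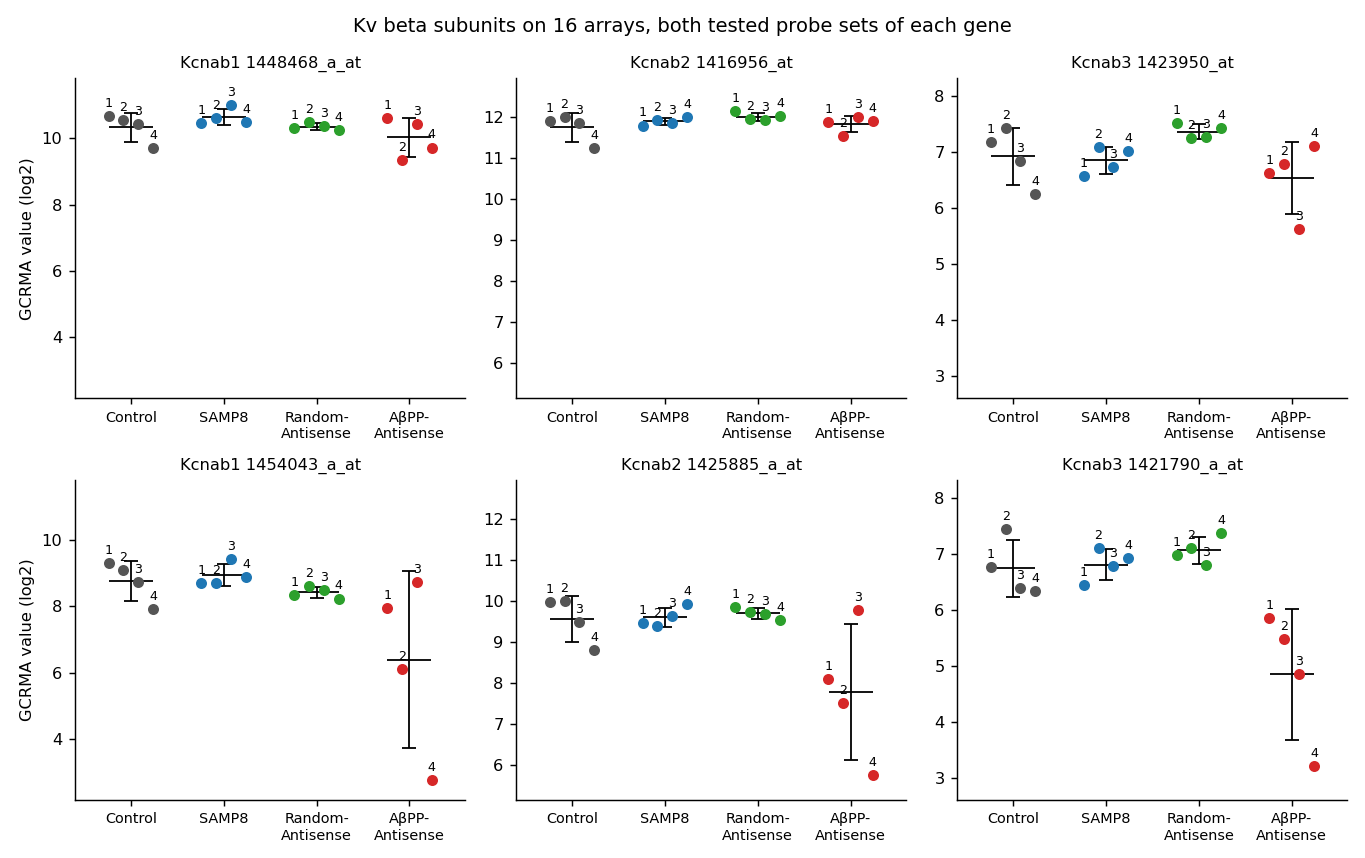
Deposited log2 values (vertical axes, 1 range per gene) of both tested probe sets of Kcnab1, Kcnab2 and Kcnab3 on 16 arrays by group; points carry the replicate number, lines are means and bars SD. In the lower row AβPP-Antisense 4 is the lowest array of every gene, at 2.76, 5.75 and 3.21, and AβPP-Antisense 3 is level with the other groups for Kcnab1 (8.74) and Kcnab2 (9.78) but not for Kcnab3 (4.86).

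Across the family, 16 of 19 tested probe sets had a negative difference between AβPP-Antisense and Random-Antisense, with a median of -0.57, where the median over all tested probe sets was 0.008. The member values include the probe set that led to the choice. With the brightest probe set of each gene, 6 of 9 genes were negative with a median of -0.18, beside 0.04 over the 11465 genes tested. On 6 of the 19 the groups did not overlap, all with AβPP-Antisense lower, and such a separation occurred on 3.71% of all tested probe sets. Against untreated SAMP8, 5 of 19 did not overlap, where 4.41% of probe sets did the same. The only member past the limma threshold (adjusted p under 0.05) was Kcna6 1421568_at, in both comparisons, where 0.0837% and 0.289% of probe sets passed it. That probe set is the value by which the family was chosen, so its passing is a description and no test, and nothing is read from these counts. Fitted on the 8 arrays of each comparison alone, 0 of 19 were called in both, with 0 (Random-Antisense) and 5 (SAMP8) called over all 23905 probe sets. The call was also absent when the probe sets of a gene were averaged, where 7 and 22 of 11465 genes were called. Without AβPP-Antisense 3 the calls against Random-Antisense were 5 (Kcna6, Kcnab3, Kcna2, Kcna3 and Kcnab2), with 896 called over all probe sets in place of 20. They were 2 without AβPP-Antisense 1, 2 without AβPP-Antisense 4 and 2 without Control 4, with 31, 68 and 58 called over all probe sets. These calls too lie in the comparison behind the choice of the family, and are a description and no test.

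Array by array, 10, 11, 12 and 12 of the 19 probe sets on AβPP-Antisense 1 to 4 lay below all 8 untreated and Random-Antisense SAMP8 arrays. The shares of all tested probe sets were 26.6%, 27.8%, 20.6% and 37.4%. On the upper side the counts were 1, 3, 1 and 2 of 19, where 28.2%, 31.4%, 18.3% and 34.4% of all probe sets lay above. The arrays of this group thus deviated in both directions over all probe sets. The Kv1 probe sets below the 8 arrays were not the same from array to array, and 5 were below them on all 4: Kcna1 1417416_at, Kcna2 1422197_at, Kcna3 1423018_at, Kcna6 1421568_at and Kcnab3 1421790_a_at. The share of all tested probe sets below them on all 4 was not taken, and the 5 include the probe set that led to the choice. Nothing is therefore read from that count.

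Each of those 5, which were picked by their low values on the AβPP-Antisense arrays, carries a RefSeq mRNA accession in the platform annotation. Of the 7 tested Kv1 probe sets with a RefSeq mRNA accession, 6 were lower in AβPP-Antisense than in Random-Antisense, with a median difference of -0.67. For the 12 with another accession the median was -0.31, and 10 were lower. This comparison was chosen after the values were seen, and the 7 include the probe set that led to the choice of the family. Single probe sets went against the split. Kcna5 1417680_at, with a RefSeq accession, was higher by 0.52. Kcnab1 1454043_a_at (-2.03) and Kcnab2 1425885_a_at (-1.91) have another accession. Over all tested probe sets, those with a RefSeq accession had a median of 0.006 with 49.1% negative, and the others 0.003 with 49.7% negative. The same split was taken over the 932 genes that have tested probe sets of both kinds. Their RefSeq probe sets had a median difference of -0.09 with 61.2% negative, and the others 0.01 with 49.3% negative. Between Random-Antisense and SAMP8, the RefSeq probe sets of these 932 genes were negative in 61.7% and the others in 48.5%, with medians of -0.04 and 0.003. Over all tested probe sets these shares were 62.4% and 52.6%. The cause of the split was not tested. Where each probe set lies on its transcript was not analysed here.

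**Figure D3:**
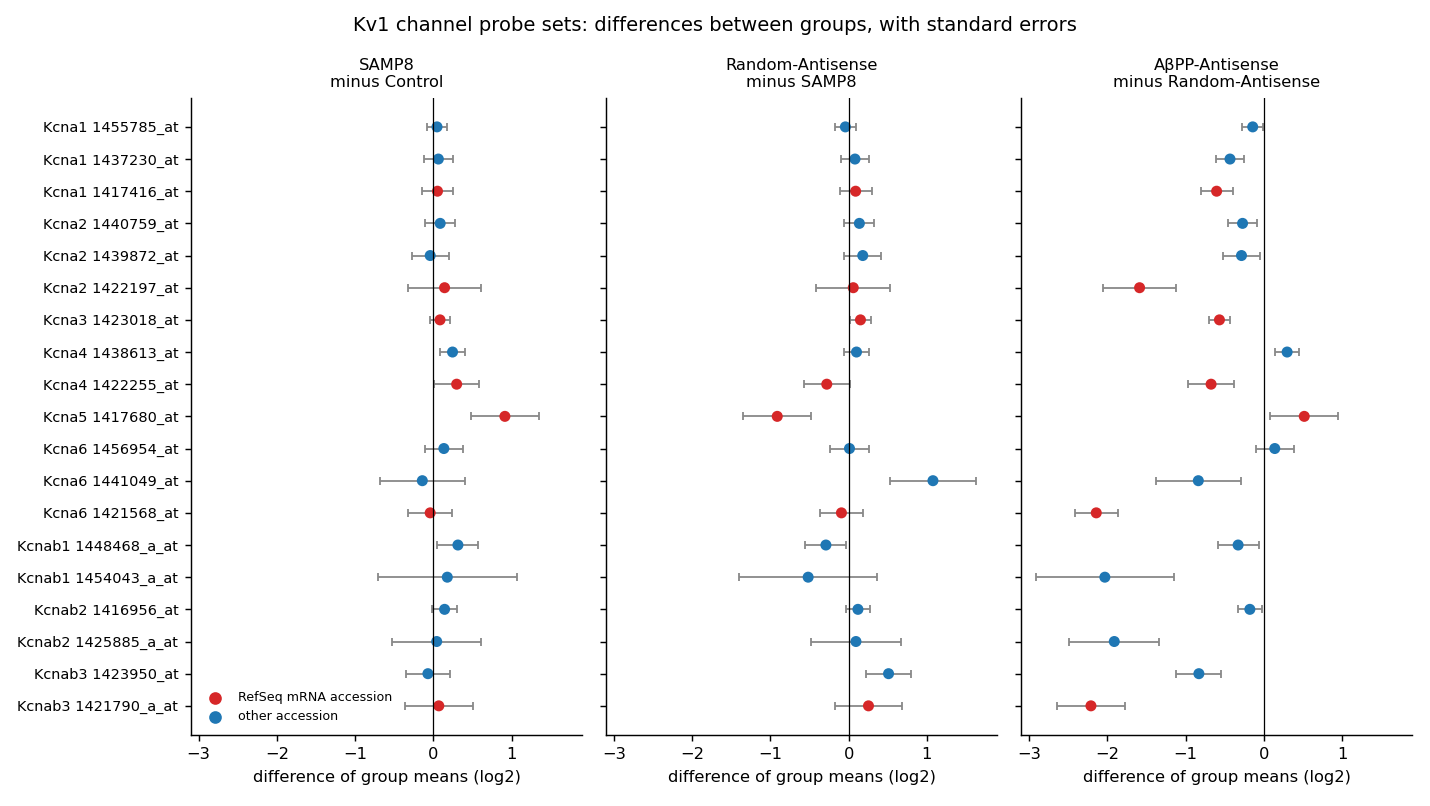
Difference of group means in log2 (horizontal axis) for the 19 tested Kv1 probe sets in 3 comparisons, with bars for the standard error from the 16-array limma fit; red marks probe sets with a RefSeq mRNA accession and blue the others. In the right panel Kcnab3 (-2.21), Kcna6 (-2.14), Kcnab1 (-2.03), Kcnab2 (-1.91) and Kcna2 (-1.59) each have 1 probe set far below 0 and another of the same gene nearer to 0, while in the left and middle panels most points lie near 0.

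Measures of tissue content and RNA also varied among the 4 AβPP-Antisense arrays, and are given beside the Kv1 values. The mean of 8 thalamus and habenula markers, tissue that borders the hippocampus, was 7.38, 8.87, 7.16 and 9.40 on AβPP-Antisense 1 to 4, against 8.67 to 9.23 in Random-Antisense, 9.40 to 9.47 in SAMP8 and 8.74 to 9.77 in Control. All 8 of its genes had a lower mean than in Random-Antisense. The order of the 4 arrays (3, 1, 2, 4, from low to high) was also that of 3 of the 19 member probe sets, Kcna6 1441049_at, Kcna6 1456954_at and Kcnab3 1423950_at, and of 7.78% of all tested probe sets. The mean of the endothelial and mural markers had the same order. In Random-Antisense and SAMP8 the thalamus and habenula mean was 9.01 and 9.44, with 8 of 8 genes lower in Random-Antisense. The 3 probe sets averaged 7.39 and 6.31 (Kcna6 1441049_at), 8.86 and 8.85 (Kcna6 1456954_at), and 7.36 and 6.85 (Kcnab3 1423950_at). The mean of the 10 hippocampal neuron markers was 9.63, 8.04, 9.93 and 8.38, against 8.78 to 9.59 on the 12 other arrays. Their order (2, 4, 1, 3, from low to high) was that of 0 of the 19 member probe sets and of 3.15% of all tested probe sets. Arrays 2 and 4, low in these markers, were the low arrays of Kcnab1 1448468_a_at, whose full order differed. Arrays 1, 2 and 4, which had the wider beta-actin differences, were those in which Kcnab2 1425885_a_at and Kcna4 1422255_at were low. Kcna6 1421568_at and Kcnab3 1421790_a_at were low on array 3 too, at -1.48 and -2.20 from the Random-Antisense mean. The share of all tested probe sets low on arrays 1, 2 and 4 alone was not taken. In a fit with the beta-actin difference as a covariate the AβPP-Antisense minus Random-Antisense difference was -1.998 for Kcna6 1421568_at, -0.46 for Kcnab1 1454043_a_at and -0.999 for Kcnab2 1425885_a_at. Other probe sets moved the other way: Kcna6 1441049_at from -0.84 to -1.52, Kcnab3 1423950_at from -0.83 to -1.16 and Kcna6 1456954_at from 0.14 to -0.27. These members were picked from the 19 after the values were seen. The covariate stood furthest out on AβPP-Antisense 4, at 3.89. The mean of 6 tested choroid plexus markers was 4.91 to 7.43 in AβPP-Antisense and 7.86 to 9.12 in Random-Antisense. The part of RNA quality and of tissue content in these differences was not tested.

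**Figure D4:**
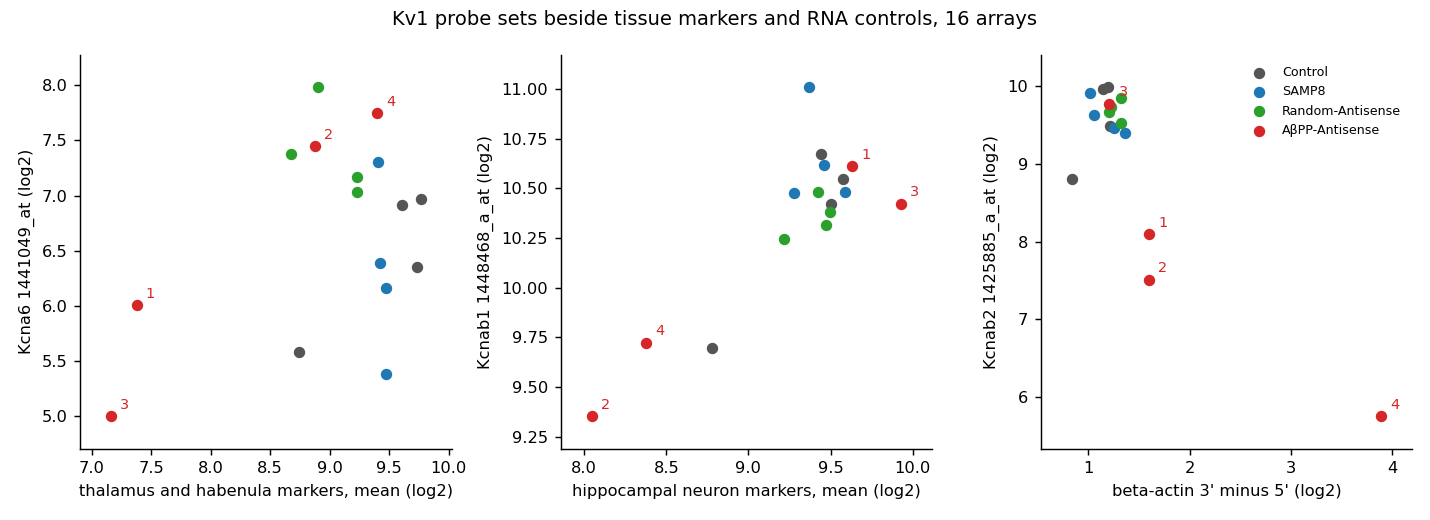
Kcna6 1441049_at against the mean of thalamus and habenula markers, Kcnab1 1448468_a_at against that of hippocampal neuron markers and Kcnab2 1425885_a_at against the beta-actin 3′ minus 5′ difference (all axes log2), 1 point per array, coloured by group, with AβPP-Antisense replicates numbered. AβPP-Antisense 1 and 3 are low in thalamus markers (7.38 and 7.16) and in Kcna6, replicates 2 and 4 are low in neuron markers (8.04 and 8.38) and in Kcnab1, and replicate 4 stands at an actin difference of 3.89 with a Kcnab2 value of 5.75.

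The comparison of the lines, which the choice of the family did not use, showed no Kv1 gene called between SAMP8 and Control. In limma 0 of 19 probe sets passed an adjusted p under 0.05, where 0.36% of all probe sets did, and 0 had an unadjusted p under 0.05. Every adjusted p was 0.999. The median difference was 0.08. The largest was that of Kcna5, 0.91 higher in SAMP8 with a 95% interval of -0.016 to 1.84 and overlapping groups, and 0.57 without Control 4. For the Kcna6 probe sets the differences were 0.13, -0.14 and -0.04. The intervals do not show that the lines are alike: the interval for Kcna2 1422197_at in the fit of the 8 arrays ran from -1.11 to 1.40.

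Kcna4 1438613_at was the 1 member of 19 whose arrays separated the lines, and 3.23% of all probe sets were higher in SAMP8 with no overlap. It read 8.50, 8.43, 8.48 and 8.45 in Control and 8.78, 8.60, 8.59 and 8.85 in SAMP8, a difference of 0.24 with a limma adjusted p of 0.999. In the fit of these 8 arrays alone the unadjusted limma p was 0.0345 and the adjusted p 0.862. There 1 of 19 members, this one, passed an unadjusted 0.05, as did 5.36% of all probe sets. The second Kcna4 probe set was higher by 0.30 with overlapping arrays.

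Control 4 carried a large part of the spread in Control. It was the lowest Control array for Kcna1 1455785_at (11.82 against 12.35 to 12.37), Kcna2 1440759_at (10.95 against 11.56 to 11.60), Kcnab1 1448468_a_at (9.69 against 10.42 to 10.67) and Kcnab2 1416956_at (11.24 against 11.85 to 12.01). The same array had the lowest mean of hippocampal neuron markers in Control (8.78 against 9.44 to 9.58) and the high leukocyte markers, whose part in these values was not tested. Without it the SAMP8 minus Control differences of Kcna1 1455785_at and Kcnab2 1416956_at were -0.09 and -0.03, and that of Kcnab1 1448468_a_at was 0.10.

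The random oligonucleotide was compared with no treatment in SAMP8, a comparison that shares the Random-Antisense arrays with the one behind the choice. Here too limma called 0 of 19 member probe sets, 0.0% of all probe sets were called, and 0 had an unadjusted p under 0.05. The adjusted p values were all 1.00. In the fit of these 8 arrays alone, 6 of 19 had an unadjusted limma p under 0.05 (2 higher, 4 lower), where 13.3% of all probe sets did. Their lowest adjusted p was 0.256, for Kcnab3 1423950_at. Of the 19, 1 was higher and 1 lower with no overlap. Kcnab3 1423950_at was higher in all 4 Random-Antisense mice, at 7.51, 7.25, 7.27 and 7.43, than in untreated SAMP8, at 6.57, 7.09, 6.73 and 7.02. The difference was 0.51, and 3.91% of all probe sets were higher without overlap. Kcnab1 1454043_a_at was lower in all 4, by 0.52, where 4.2% of probe sets were lower without overlap.

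Kcna6 1441049_at had the largest Kv1 difference of this comparison. It read 7.03, 7.38, 7.17 and 7.98 in Random-Antisense and 6.17, 7.31, 5.39 and 6.39 in SAMP8, higher by 1.08, and SAMP8 2 lay inside the Random-Antisense range. In the fit of these 8 arrays alone the interval was 0.24 to 1.92 with an unadjusted limma p of 0.0176 and an adjusted p of 0.320. The other Kcna6 probe sets differed by 0.01 and -0.09. Kcna5 was lower by 0.91 with overlapping arrays, and by 0.55 without Random-Antisense 3.

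In the order of group means, AβPP-Antisense was lowest on 14 of the 19 tested probe sets. The exceptions were Kcna4 1438613_at, Kcna5 1417680_at, Kcnab2 1416956_at and both Kcna6 probe sets other than 1421568_at. Control was lowest on 4 and SAMP8 on 1. Groups next to each other in that order overlapped on 15 of the 19. The exceptions were Kcna6 1421568_at (AβPP-Antisense below Random-Antisense), Kcna3 1423018_at and Kcnab3 1421790_a_at (AβPP-Antisense below Control) and Kcna4 1438613_at (Control below SAMP8). The shares of all tested probe sets with such orders and separations were not taken. The 14 include the probe set that led to the choice and several probe sets of the same genes, so nothing is read from these counts.

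The rest of the Kv1 machinery was read from lists of genes. Kcna7, the only other Kv1 alpha subunit with a tested probe set, differed by 0.06 between the lines, 0.05 with the random oligonucleotide and 0.04 between the oligonucleotides. Of 22 partners of Kv1 (the secreted LGI proteins, their ADAM receptors, contactins, Caspr proteins and membrane scaffolds), 20 were tested. In limma 0 of 20 were called between the lines and 0 of 20 with the random oligonucleotide. All 20 differences between SAMP8 and Control were positive, with a median of 0.13 beside 0.04 over all genes. The largest was Nrcam, a node and axon adhesion protein, at 0.51 (limma adjusted p = 0.553). Without Control 4, 8 of 20 were positive and the median was -0.01. Between AβPP-Antisense and Random-Antisense 16 of 20 were negative, with a median of -0.14 beside 0.04 over all genes. Without AβPP-Antisense 4, 13 of 20 were negative with a median of -0.08, beside 0.03 over all genes. The lowest was Cntn2, the axonal contactin that holds Kv1 beside the node (-0.61), and the highest was Dlg2, PSD-93 (0.20).

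Of 42 other voltage-gated potassium channel subunits 26 were tested, and limma called 0 of 26 in the comparison of the lines and 0 of 26 with the random oligonucleotide. Those counts use 1 probe set per gene, the brightest. Over all 117 tested probe sets of the list genes, limma called 1 in the tested comparisons: 1441071_at of Kcnq5, a subunit of the M current, was lower in SAMP8 than in Control. It read 8.14, 8.47, 7.71 and 7.15 in Control and 2.79, 2.86, 2.85 and 2.85 in SAMP8, and the Random-Antisense arrays stayed at 2.88 to 2.91. AβPP-Antisense 1 read 4.76, above the other arrays of its group. The probe set passed the filter on the 4 Control arrays and that array alone, so it entered the test through the group in which it is high, and with SAMP8 at the bottom of the scale the size of the difference is uncertain. It would not have been tested under a filter of 8 arrays. The remaining Kcnq5 probe sets differed by 0.58 and 0.42 in the other direction, with limma adjusted p of 0.999. In the 26 genes the median difference between AβPP-Antisense and Random-Antisense was -0.26, with 20 of 26 negative, beside a median of 0.04 over all genes. The lowest was Kcne2, an accessory subunit that is also one of the choroid plexus markers (-2.75), and the highest Kcng1, a silent modifier of Kv2 (0.42). Kcnc1 and Kcnc2, the fast Kv3 channels of interneurons, differed by -0.10 and -0.21. Without AβPP-Antisense 4 the median of the 26 genes was -0.31, with 21 of 26 negative. Of 8 voltage-gated sodium channel subunits 7 were tested and 0 of 7 were called in limma in each tested comparison. Their median between AβPP-Antisense and Random-Antisense was -0.21, with Scn8a, the main sodium channel of mature nodes, at -0.41 and Scn2a at 0.07. Without AβPP-Antisense 4 the median of the 7 was -0.18, with 4 of 7 negative.

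The genes whose values over the 16 arrays were most like each member were found by Pearson correlation. Arrays of 1 group share treatment, and a few arrays that stand apart weigh on each r. For Kcna6 1421568_at they were Rcan2 (r = 0.956), Tomm40 (0.952) and Slc35f1 (0.946). The Rcan2 probe set averaged 6.22 in AβPP-Antisense and 7.95 in Random-Antisense, and that of Slc35f1 averaged 2.84 and 4.97. For Kcna6 1456954_at the 3 genes were Mul1 (0.956), Pacsin3 (0.952) and Ddit3 (0.951), which shared none with the first probe set. Kcna3 had Smarcb1 (0.886), Tomm40 (0.867) and Usf1 (0.852). Kcna2 1440759_at was most like Cbln2 (0.954), Bend6 (0.945) and Ina (0.942). Kcna1 1455785_at was most like Ro60 (0.878), Dync1li2 (0.854) and Vti1a (0.839). Kcna4 1438613_at had Gon4l (0.927), Nudt13 (0.925) and Zfp821 (0.909), and Kcna5 had Ccdc151 (0.820), Polrmt (0.812) and Hmgcll1 (0.797). For the beta subunits the leading genes were Zfp758 (0.938), Gpr12 (0.931) and Dync2li1 (0.912) for Kcnab1, and Coro2b (0.933), Ap3s2 (0.926) and Nell2 (0.925) for Kcnab2. Kcnab3 1423950_at had Cpne9 (0.839), Kcna2 itself (0.838) and Cplx1 (0.838).

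In the mouse gene table of assembly GRCm38.p6, Kcna5, Kcna1 and Kcna6 follow each other among the protein-coding genes of chromosome 6, and Kcna3 and Kcna2 are neighbours among those of chromosome 3. Between the neighbours Kcna6 and Kcna1, the AβPP-Antisense minus Random-Antisense differences ran from -2.14 to 0.14 for Kcna6 and from -0.60 to -0.14 for Kcna1 over their tested probe sets. Around each of the 9 members the 20 nearest genes with a tested probe set held 0 genes called in limma between SAMP8 and Control.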

How the data were processed

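The authors deposited log2 values made with GCRMA as 1 value for each probe set, per the submitters' processing notes; its version was not given in the sources used here. The deposited table holds 45101 probe sets on 16 arrays; 64 control probe sets were left out, and the rest have 1 gene symbol (34945), several (932) or none (9160) in GEO's platform annotation. Per the labels, each array is 1 mouse, grouped here by title. Scanned intensities were not used here.

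Probe sets over 4 log2 on at least 4 arrays (23905) were fitted in limma 3.58.1 (R 4.3.3) as 4 groups on all 16 arrays (12 residual degrees of freedom), p-values were adjusted by Benjamini-Hochberg over all of them, and the threshold was 0.05. The script was tested on simulated data. A gene in a list is its tested probe set of highest mean; 11465 genes were tested. Named were all members, up to 4 called genes per list and comparison, and the 3 genes most alike; list genes with the lowest and highest difference, and Kcna7, Kcnc1, Kcnc2, Kcnq5, Scn8a and Scn2a, were picked after their values were seen. The members, lists and rules were chosen with earlier results of these data known. Exact permutation tests of 4 against 4 arrays for the beta-actin 3′ to 5′ difference, two-sided, gave p = 0.543 for SAMP8 against Control and 0.343 for Random-Antisense against SAMP8; the smallest such p is 0.0286. Alternatives changed the filter, scaling, arrays, weights, variance prior, block, covariate and probe set. The number of arrays limits the precision. Probe and protein sequences were not used here.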

Additional observations from a re-analysis of the deposited data

Results flagged for a closer look

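Of 84 groups of 4 arrays looked at, 4 held an array whose gap to its nearest neighbour was a large share of the group's range (Dixon's 95% criterion), and chance alone marks about 1 group in 20. Kcna1 1455785_at read 11.8191 on Control 4, where the other Control arrays read 12.35 to 12.37. Kcna2 1440759_at read 10.9534 on Control 4, against 11.56 to 11.60. Kcna2 1422197_at read 6.2946 on Random-Antisense 1, against 5.86 to 5.93; this is the array whose treatment label says none. The beta-actin 3′ minus 5′ difference was 3.89397 on AβPP-Antisense 4, against 1.21 to 1.60 on the other arrays of the group.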

How the results depend on the processing

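In SAMP8 minus Control and Random-Antisense minus SAMP8, 0 of the member probe sets were called under every alternative run. With array weights 1 pathway gene, Nrcam, was called between the lines (0.41, limma adjusted p = 0.0385). Differences near 0 changed sign in several probe sets, among them Kcna1 1455785_at (-0.115 with array weights, -0.0890 without Control 4 and with both replicates 4 left out; leaving out 1 array, -0.0890 to 0.0968), Kcna2 1422197_at (-0.38, -0.46 and -0.46; -0.46 to 0.50) and Kcnab2 1416956_at (-0.0165, -0.0296 and -0.0296; -0.0296 to 0.229) in SAMP8 minus Control, and Kcna4 1438613_at in Random-Antisense minus SAMP8 with the mean of the gene's probe sets (-0.0894). Calls among members in the AβPP-Antisense comparisons are a description and no test. For AβPP-Antisense minus Random-Antisense and minus SAMP8 they were 0 and 0 with only 8 arrays, and 3 and 3 with both replicates 4 left out. They were 0 and 0 with the gene's mean, and 1 to 5 and 1 to 6 leaving out 1 array. Kcna6 1421568_at ranged from -2.36 to -2.01 when 1 array was left out. Over all probe sets, calls between the lines were 86, but 37 with 8 arrays, 295 with array weights, 23 with gene means and 54 to 115 leaving out 1 array. In AβPP-Antisense minus Random-Antisense they were 20, but 0, 35 and 7 in the same order, 59 with the actin covariate, 13 with Random-Antisense 1 as untreated, 199 with both replicates 4 left out and 11 to 896 leaving out 1 array. In AβPP-Antisense minus SAMP8 they were 69, but 5 with 8 arrays, 31 with no filter, 22 with gene means, 401 with both replicates 4 left out and 16 to 1286 leaving out 1 array. With the random oligonucleotide there were 19 with array weights, otherwise 0. The cause was not tested.

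Whether replicate numbers pair the arrays was not settled, and the main fit used no pairing. Same-numbered arrays of SAMP8 and Control correlated at 0.05, 0.14, 0.03 and 0.05 in their deviations, and differently numbered ones at -0.12 to 0.07. For Random-Antisense and SAMP8 the same-numbered values were 0.09, -0.12, 0.17 and 0.12, and the others -0.15 to 0.13. With the replicate block, member calls were 0, 0, 1 and 1 in the 4 comparisons and 71 probe sets were called between the lines.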
